A study of Mus musculus with 7 samples.

Results

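The genes described here encode the T cell receptor's CD3 chains, its nearest signalling proteins and the CD28 family of costimulatory and inhibitory receptors, measured in CD11c-enriched cells of mouse spleen. The 10 genes (Cd3d, Cd3e, Cd3g, Lck, Lat, Cd5, Cd28, Icos, Ctla4 and Pdcd1) were chosen by name, and every probe set annotated to 1 of them alone was taken. That gave 11 probe sets of 9 genes, out of 12393 genes named on the array. Cd28 and Icos had 2 probe sets each, and Lck was not analysed here, because no probe set naming it alone was in the values used. No filter on low values was applied, so all 11 probe sets were tested.

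The cells came from spleens taken at day 7 post allo-HSCT (allogeneic hematopoietic stem cell transplantation), a transplant from a genetically different donor, and were enriched by magnetic sorting (MACS) for CD11c, an integrin carried by dendritic cells. Arrays WT1 to WT4 were labelled wild type (C57BL/6J) and arrays HM1 to HM3 Atg16L1 hypomorphic (C57BL/6J). Both groups share the C57BL/6J background, the transplant and the day. The mice were 8 weeks old by the series text and 9 weeks old at collection by the sample protocol. Atg16l1 encodes a protein of the autophagy machinery, and a hypomorph keeps part of a gene's function. The labels do not say if recipients, donors or both carried the labelled genotype, nor that each array came from a separate animal. P-values therefore measure the spread between these samples, which may be technical.

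The T cell receptor has no signalling part of its own. It relies on the CD3 chains, whose tails are phosphorylated by the kinase Lck and pass the signal to the adaptor Lat. CD28 and ICOS on the T cell strengthen that signal when they meet their ligands on antigen-presenting cells, and CTLA-4 and PD-1 (the product of Pdcd1) restrain it. These are best known as T cell genes, though other cells carry single members, among them some natural killer (NK) cells, myeloid cells and B-1 cells. Which cells of the CD11c-enriched fraction carried the transcripts was not tested.

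None of the 9 genes passed the test between the genotypes, and in each the groups overlapped. For the CD3 chains, Lat and Cd5 the group means differed by -0.03 to 0.14 on the log2 scale. The CD28 family read 0.21 to 0.48 higher in the hypomorph, as differences of log2 means that did not pass the test. The 4 wild-type arrays spread over 0.50 to 1.42 log2 units (1.41-fold to 2.67-fold) in these genes, with WT1 and WT3 above WT2 and WT4 in every probe set. The hypomorph arrays lay closer together for all members but Icos, whose SD was similar in both groups.

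Promoter windows are shown for 2 sets of members whose levels followed each other over the arrays, as given further on: the CD3 chains with Lat and Cd5, and Ctla4 with Pdcd1. The sets are not sharply apart, as Lat had a Pearson's r of 0.92 with Pdcd1. The windows are RefSeq sequences of the GRCm38.p6 assembly in the gene's own direction, from 200 bases before the start site to the 20 bases that begin there. Of the 10 members, 8 had a window. Capitals mark CAGGTG or, for the opposite strand, CACCTG, letters bound by E-box proteins, a family of transcription factors active in lymphocytes. These are Cd3g (chr9:44980412-44980631, minus strand), Cd3d (chr9:44981586-44981805, plus strand), Cd3e (chr9:45009592-45009811, minus strand), Lat (chr7:126369549-126369768, minus strand), Cd5 (chr19:10738955-10739174, minus strand), Ctla4 (chr1:60908825-60909044, plus strand) and Pdcd1 (chr1:94052534-94052753, minus strand).
Cd3g: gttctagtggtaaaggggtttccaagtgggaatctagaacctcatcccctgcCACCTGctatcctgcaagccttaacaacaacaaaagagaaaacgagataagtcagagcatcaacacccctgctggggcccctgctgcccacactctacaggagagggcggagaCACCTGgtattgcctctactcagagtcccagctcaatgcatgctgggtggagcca
Cd3d: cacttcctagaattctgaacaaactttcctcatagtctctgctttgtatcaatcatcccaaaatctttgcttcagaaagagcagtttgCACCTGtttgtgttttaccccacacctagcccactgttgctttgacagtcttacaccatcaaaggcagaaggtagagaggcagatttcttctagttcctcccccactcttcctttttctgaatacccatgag
Cd3e: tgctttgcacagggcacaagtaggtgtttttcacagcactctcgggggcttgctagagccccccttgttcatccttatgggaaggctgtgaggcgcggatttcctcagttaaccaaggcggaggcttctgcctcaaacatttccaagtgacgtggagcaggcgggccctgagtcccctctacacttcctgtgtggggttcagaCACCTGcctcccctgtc
Lat: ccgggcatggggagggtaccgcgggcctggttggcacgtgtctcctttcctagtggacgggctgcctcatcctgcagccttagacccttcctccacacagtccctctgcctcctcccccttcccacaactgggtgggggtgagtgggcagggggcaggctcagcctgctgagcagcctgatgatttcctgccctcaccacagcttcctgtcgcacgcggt
Cd5: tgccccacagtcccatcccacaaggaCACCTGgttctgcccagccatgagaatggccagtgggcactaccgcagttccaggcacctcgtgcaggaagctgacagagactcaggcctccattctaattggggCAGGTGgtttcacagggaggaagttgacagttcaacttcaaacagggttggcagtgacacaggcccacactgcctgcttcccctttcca
Ctla4: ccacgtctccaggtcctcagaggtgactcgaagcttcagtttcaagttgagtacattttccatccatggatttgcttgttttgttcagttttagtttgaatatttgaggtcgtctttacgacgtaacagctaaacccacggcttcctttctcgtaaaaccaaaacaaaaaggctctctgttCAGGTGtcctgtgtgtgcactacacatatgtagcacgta
Pdcd1: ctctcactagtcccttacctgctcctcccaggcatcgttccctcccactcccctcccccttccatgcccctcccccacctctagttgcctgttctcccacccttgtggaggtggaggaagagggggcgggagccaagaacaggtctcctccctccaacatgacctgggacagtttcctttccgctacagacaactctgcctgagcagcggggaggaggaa
The letters lie in 6 of the 9 member windows, since Lck has 2: those of the 3 CD3 chains, Cd5, Ctla4 and 1 of Lck. They are not in the windows of Lat and Pdcd1 or in the other of Lck. Cd3g and Cd5 held them at 2 places each. Among 32817 windows of the same length in the RefSeq table, 15.1% held them on either strand. A total of 6 motifs was searched on both strands, and this one was chosen for display after the search. TGTGGT, of the RUNX family, was found in windows of Lat and Lck against 12.2% of all windows. AGATAA, known from GATA factors, lay in the Cd3g window against 8.35%. GGAAGT, of the ETS family, lay in the windows of Cd3d, Cd3e, Cd5 and Lck against 18.7%. The NFAT core GGAAA, whose first 4 letters are those of the ETS motif, lay in 8 of 9 member windows against 50.6%. The TATA box letters TATAAA lay in 0 against 10.5%. A match is a description of the letters and not of binding. Cd3g and Cd3d start beside each other on opposite strands, with 0 protein-coding genes between them, and Cd3e follows Cd3d with 0 between.

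Every array value below is the authors' deposited log2 value of a probe set, so 1 unit is a doubling. A level of one probe set cannot be set against that of another. Array medians lay between 5.46 and 5.53, and each array correlated at 0.990 to 0.993, on average, with the remaining 6. The number of arrays limits the precision. Differences are hypomorph minus wild type, with limma's 95% interval. The adjusted p is limma's with Benjamini-Hochberg adjustment over 22625 probe sets, and the exact p is from a two-sided permutation test over the 35 splits of 7 arrays, which cannot go below 0.0286. Atg16l1 itself, the check of the labels, read 7.42, 7.33, 7.26 and 7.20 in wild type, then 6.86, 6.76 and 6.94 in the hypomorph. It was lower on every hypomorph array, by 0.45 between the means (log2 difference -0.45, 95% interval -0.63 to -0.26, limma adjusted p = 0.462, exact permutation p = 0.0286), a difference that did not pass the threshold over all probe sets.

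Cd3d, which encodes the delta chain of CD3, read 10.89, 9.98, 10.50 and 10.09 on WT1 to WT4 and 10.43, 10.58 and 10.31 on HM1 to HM3. The highest value was that of WT1 and the lowest those of WT2 and WT4, and all 3 hypomorph arrays fell inside the wild-type range. The group means were 10.37 ± 0.418 (SD, n = 4) and 10.44 ± 0.137 (SD, n = 3), a difference of 0.07 (-0.43 to 0.57, limma adjusted p = 0.942, exact permutation p = 0.829). Without WT2 the difference was -0.06 and without WT1 it was 0.25, so its sign rested on single arrays.

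Cd3e, the epsilon chain, read 7.51, 6.79, 7.13 and 6.82 in wild type against 7.12, 7.12 and 6.87 in the hypomorph. The hypomorph arrays again lay inside the wild-type range. Its means of 7.06 ± 0.338 (SD, n = 4) and 7.04 ± 0.147 (SD, n = 3) differed by -0.03 (-0.45 to 0.39, limma adjusted p = 0.978, exact permutation p = 0.857). This was the 1 member whose difference was below 0, and without WT1 it was 0.12.

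Cd3g, the gamma chain, read 9.61, 8.69, 9.11 and 8.92 on the wild-type arrays and 9.04, 9.33 and 8.94 on the hypomorph arrays. The order of the wild-type arrays was the same as for the other CD3 chains. Means of 9.09 ± 0.389 (SD, n = 4) and 9.10 ± 0.203 (SD, n = 3) gave a difference of 0.02 (-0.47 to 0.51, limma adjusted p = 0.986, exact permutation p = 0.971), which was -0.11 without WT2 and 0.19 without WT1. The intervals of the 3 chains together reached from -0.47 to 0.57.

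Lat, the membrane adaptor that gathers signalling proteins after Zap70 has phosphorylated it, read 8.76, 8.07, 8.41 and 8.09 in wild type, then 8.57, 8.52 and 8.32 in the hypomorph. All hypomorph values lay between WT1 and WT2. The means were 8.33 ± 0.324 (SD, n = 4) and 8.47 ± 0.133 (SD, n = 3), 0.14 apart (-0.27 to 0.54, limma adjusted p = 0.842, exact permutation p = 0.514).

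Cd5, a receptor that damps signalling through the T cell receptor and is also found on B-1 cells, read 7.93, 6.85, 7.51 and 7.14 on WT1 to WT4. In the hypomorph it read 7.24, 7.76 and 7.16, with HM2 high. Its means of 7.36 ± 0.467 (SD, n = 4) and 7.38 ± 0.326 (SD, n = 3) differed by 0.03 (-0.59 to 0.64, limma adjusted p = 0.984, exact permutation p = 0.943). The sign turned without HM2, at -0.16, and without WT1 the difference was 0.22.

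Cd28, the costimulatory receptor that gives the family its name, was measured by 2 probe sets. The first (1417597_at) read 9.14, 8.25, 9.01 and 8.45 in wild type, then 9.01, 9.05 and 8.71 in the hypomorph. The second (1437025_at) read 8.31, 7.50, 8.18 and 7.60 against 8.29, 8.26 and 7.98. In both, WT1 and WT3 stood with the hypomorph arrays and WT2 and WT4 below them. The differences were 0.21 (-0.31 to 0.73, limma adjusted p = 0.806) and 0.28 (-0.21 to 0.78, limma adjusted p = 0.730), with exact permutation p-values of 0.457 and 0.343.

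Icos, a costimulatory receptor induced on activated T cells, likewise had a pair of probe sets. Probe set 1421930_at read 8.60, 8.15, 8.35 and 8.05 on the wild-type arrays and 8.89, 8.40 and 8.56 on the hypomorph arrays. Probe set 1421931_at read 7.17, 6.72, 6.97 and 6.68 and then 7.57, 7.04 and 7.17. HM1 was above every wild-type array in both, while HM2 and HM3 lay inside the wild-type range. Icos had the narrowest wild-type spread of the members, with SDs of 0.243 and 0.233. Its differences of 0.33 (-0.05 to 0.70, limma p = 0.0788, adjusted p = 0.649) and 0.37 (-0.01 to 0.76, limma p = 0.0537, adjusted p = 0.644) came nearest to the threshold among the members, and the exact permutation p was 0.143 for each. Leaving out HM1 reduced them to 0.19 and 0.22.

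Ctla4, an inhibitory receptor that competes with CD28 for the same ligands, read 10.05, 9.23, 9.91 and 9.15 in wild type, then 10.21, 9.79 and 9.86 in the hypomorph. HM1 was the highest of the 7 arrays, and HM2 and HM3 fell between WT3 and WT2. The means were 9.59 ± 0.459 (SD, n = 4) and 9.95 ± 0.226 (SD, n = 3), a difference of 0.37 (-0.20 to 0.93, limma adjusted p = 0.702, exact permutation p = 0.314). It ranged from 0.22 without WT4 to 0.52 without WT1.

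Pdcd1, which encodes the inhibitory receptor PD-1, read 7.80, 6.38, 7.27 and 6.62 on WT1 to WT4 and 7.73, 7.30 and 7.47 on HM1 to HM3. It had the widest wild-type range of the members, 1.42 log2 units or 2.67-fold, and all hypomorph arrays lay inside it. The means of 7.02 ± 0.643 (SD, n = 4) and 7.50 ± 0.216 (SD, n = 3) were 0.48 apart (-0.27 to 1.24, limma adjusted p = 0.704, exact permutation p = 0.314). Without WT2 the difference was 0.27, and without WT1 it was 0.74, at an unadjusted limma p of 0.0194 and an adjusted p of 0.717.

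**Figure D1:**
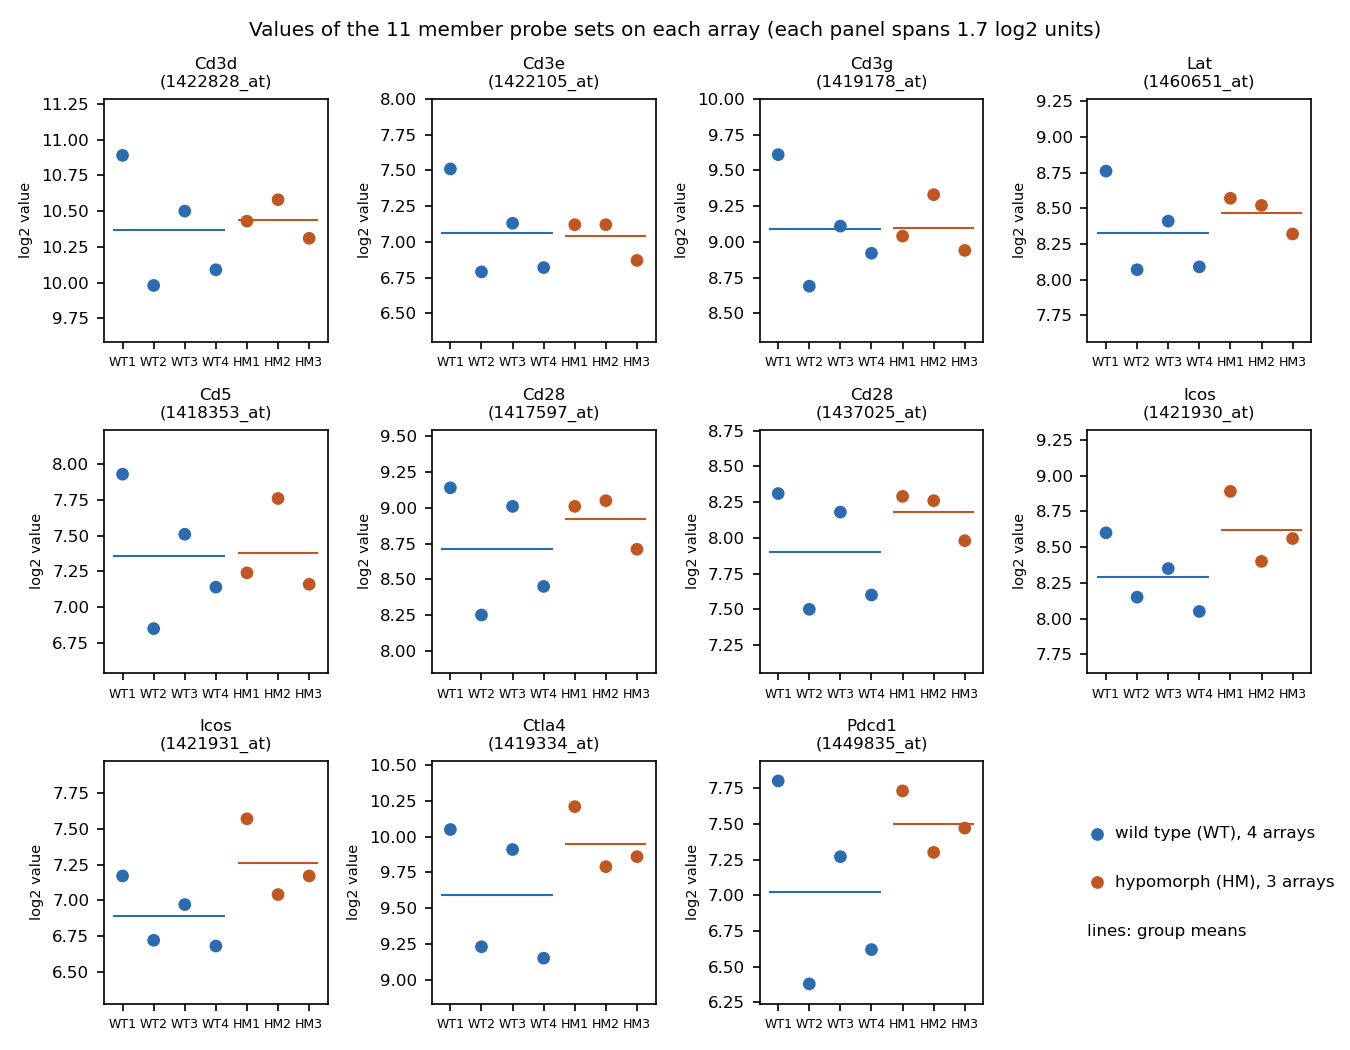
Deposited log2 values of the 11 member probe sets on each of the 7 arrays, blue for wild type (WT1 to WT4) and orange for hypomorph (HM1 to HM3), with lines at the group means and the same span of log2 units in every panel. WT1 is the highest wild-type array in all 11 panels, and HM1 lies above every wild-type array in 3 of them (Ctla4 and both Icos probe sets).

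Counted together, 10 of the 11 member probe sets had a difference above 0 and 1 below, at a median of 0.14 over the 9 genes, against a median of 0.00 and 50.7% above 0 over all probe sets. The members' median was 0.05 without WT2, 0.28 without WT1 and 0.06 with the replicate number as a block. None of the 11 passed an adjusted limma p of 0.05, where 0.0% of all probe sets did, and none passed an unadjusted limma p of 0.05, where 4.35% of all probe sets were higher and 3.34% lower. In 0 of 11 were the groups free of overlap, against 3.07% of all probe sets that were higher without overlap and 2.5% that were lower. All 11 intervals included 0. For calls and for groups without overlap the members' shares thus stood at or under the background, from which 11 probe sets are too few to tell them. Their share above 0 stood over it and was not tested. The middle 95% of differences over all probe sets ran from -0.38 to 0.40, and Pdcd1, at 0.48, was the 1 member outside it. The CD28 family had a median of 0.35 over 4 genes, the CD3 chains 0.02 and Lat with Cd5 0.08. Over 15 settings of the processing, including the removal of each array in turn, the 6 CD28 family probe sets were above 0 in 90 of 90 values, from 0.06 to 0.74. The main fit is among these settings. The trend and robust settings and the removal of dim probe sets cannot change a difference, so part of the values are repeats. The 2 Icos probe sets passed an unadjusted limma p of 0.05 without WT1 or without HM2 (adjusted p = 0.318 to 0.717), and Pdcd1 did so without WT1. Of all 22625 probe sets, 860 were higher at that threshold without WT1 and 1411 without HM2, against 984 in the main fit. The settings share the same arrays.

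**Figure D2:**
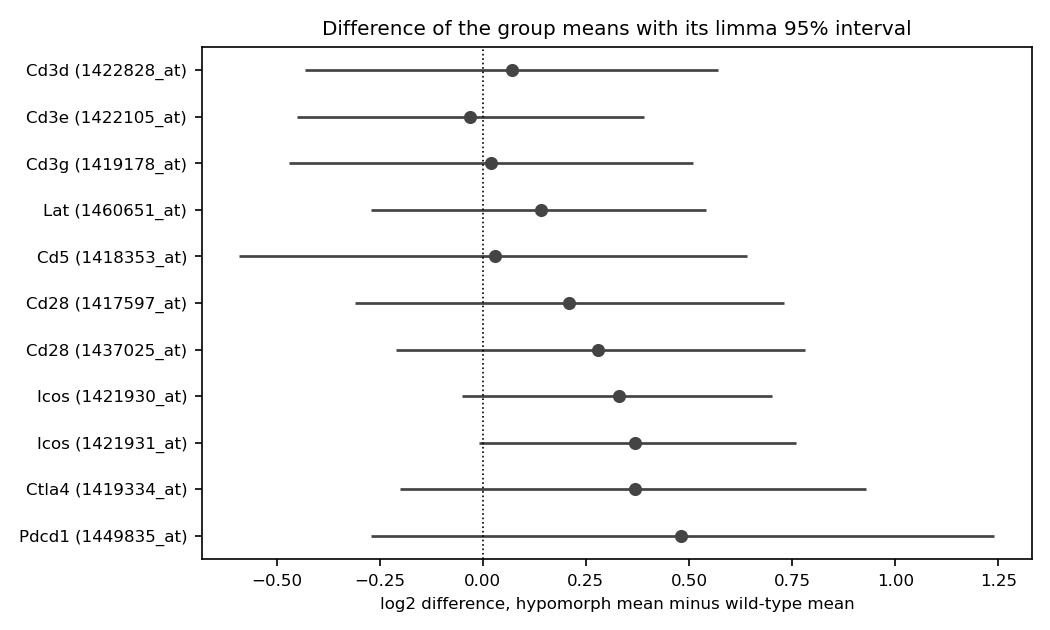
Difference of the group means (log2, hypomorph minus wild type) for the 11 member probe sets, with bars for limma's 95% interval over 4 and 3 arrays. All bars cross 0, the CD3 chains sit within 0.07 of it, and Pdcd1 has the highest difference (0.48) with the longest bar (-0.27 to 1.24).

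The members' wild-type SD ran from 0.233 to 0.643, where the median over all probe sets was 0.12, and 14.3% of all probe sets reached the lowest of these SDs. In the hypomorph the members' SDs were 0.133 to 0.326 against a median of 0.125, and those of the 2 Icos probe sets, 0.248 and 0.274, were as large as in wild type (0.243 and 0.233). WT1 had the highest value of the wild-type arrays in 11 of 11 probe sets, and WT1 and WT3 were both above WT2 and WT4 in 11 of 11. The 3 hypomorph arrays lay wholly inside the wild-type range in 8 of 11. Other lists spread alike: the median deviation on WT1 and WT2 was 0.38 and -0.36 for other T cell surface receptors, 0.39 and -0.39 for effector genes and 0.52 and -0.57 for naive and resting genes, so the spread was not particular to the members. In bulk samples such as these, fewer T cells and less RNA per T cell cannot be told apart.

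Over the 7 arrays the members followed each other, as a description with no test, since all values share the same arrays. Pearson's r between the CD3 chains was 0.93 to 0.96 (n = 7 arrays), and Cd5 and Cd3g had an r of 0.98. Lat had an r of 0.96 with Cd3d, and Cd28 had 0.93. Ctla4 and Pdcd1 had an r of 0.96, and Icos had 0.93 with Ctla4 and 0.90 with Pdcd1. Between the CD3 chains or Cd5 and Icos, Ctla4 or Pdcd1, r was at most 0.84 (Cd3d with Pdcd1). It went down to 0.41 for Icos with Cd3g and 0.33 for Icos with Cd5. Lat and Cd28 were near to both groups, with r of 0.92 and 0.90 to Pdcd1 and of 0.88 to Ctla4 for each. Lat with Cd5 had 0.84, so the groups were not sharply apart.

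**Figure D3:**
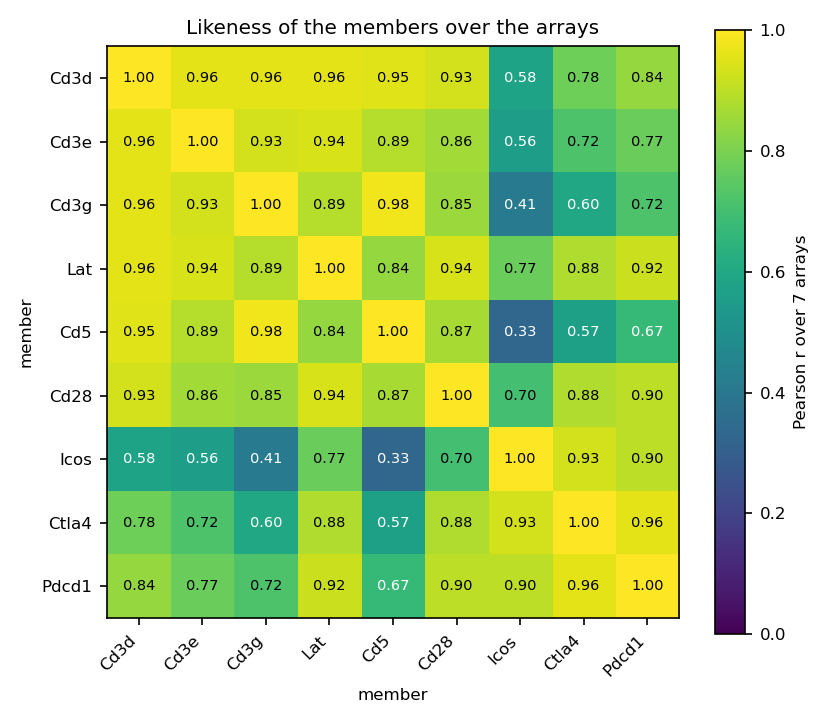
Pearson's r between the 9 measured members over the 7 arrays, each gene by its probe set with the highest mean, with colour from 0 to 1. The CD3 chains, Lat, Cd5 and Cd28 form a block of r of 0.84 and above, Icos, Ctla4 and Pdcd1 one of 0.90 and above, and Icos with Cd5 has the lowest value, 0.33. The blocks are not sharply apart, as Lat and Cd28 have r of 0.92 and 0.90 with Pdcd1.

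For each member the 3 genes with the highest r were taken among all genes that are no member and vary over the arrays (SD of at least 0.2). Cd3d was closest to S1pr4, a lymphocyte receptor for sphingosine 1-phosphate (r = 0.986), then Il18r1 and Klk8. Nearest to Cd3e were Gimap6, a GTPase of the immune-associated family (r = 0.988), the adaptor Sit1 and the adhesion receptor Cd2. Cd3g lay closest to Zap70, the kinase that docks on phosphorylated CD3 chains (r = 0.984), then Ablim1 and Gimap1. Cd5 was closest to Gimap4 (r = 0.995), then Ablim1 and Padi2.

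Lat was most like Il18r1, a chain of an interleukin receptor (r = 0.988), the T cell receptor segment Trav9d-3 and the death ligand Fasl. Cd28 came closest to Sdcbp2 (r = 0.973), the interleukin 7 receptor Il7r and the transcription factor Stat4. For Icos the closest were Aopep (r = 0.977), the granzyme Gzmc and Dnajb5, for Ctla4 Ercc5 (r = 0.98), the efflux pump Abcb1b and the chromatin organizer Satb1, and for Pdcd1 Abcb1b (r = 0.992), the T cell adaptor Sh2d2a and Ppp3cc, a calcineurin subunit. Abcb1b was thus shared by Ctla4 and Pdcd1, Ablim1 by Cd3g and Cd5, and Il18r1 by Cd3d and Lat. Each r is over 7 arrays that all genes share.

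Because the members rose and fell together over the arrays, each member was also set against the mean of Cd3d, Cd3e and Cd3g on the same array, which asks for unequal change only. That mean was 9.34, 8.49, 8.91 and 8.61 in wild type, then 8.86, 9.01 and 8.71 in the hypomorph, or 8.84 ± 0.379 (SD, n = 4) and 8.86 ± 0.153 (SD, n = 3). The differences below are log2 values minus that mean, hypomorph minus wild type. All 8 probe sets of the 6 other genes had a difference above 0.

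Pdcd1 stood at -1.54, -2.10, -1.65 and -1.99 relative to the CD3 mean on WT1 to WT4 and at -1.13, -1.71 and -1.24 on HM1 to HM3. HM1 and HM3 were above every wild-type array and HM2 was not. The difference was 0.46 (exact permutation p = 0.143). Ctla4 stood at 0.71, 0.75, 1.0 and 0.54 and then at 1.35, 0.78 and 1.16, with the same 2 hypomorph arrays above the wild type and a difference of 0.34 (exact permutation p = 0.143).

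Icos (1421930_at) stood at -0.74, -0.34, -0.56 and -0.56 in wild type, then at 0.02, -0.61 and -0.14 in the hypomorph. HM1 and HM3 were again above every wild-type array, and HM2 was lower than all but WT1. The difference was 0.31, and 0.35 for the second Icos probe set, with an exact permutation p of 0.2 for both. Without HM1 these fell to 0.17 and 0.20, the differences of Ctla4 and Pdcd1 to 0.22 and 0.35.

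Cd28 had differences of 0.19 and 0.26 (exact permutation p = 0.114 and 0.0857). Lat had 0.12 (p = 0.143 in the same exact test) and Cd5 0.01 (exact p = 0.914), the latter with a sign that turned in 2 of 7 fits without 1 array and in 3 of 10 other settings. The groups of all 8 probe sets overlapped.

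In the limma fit of these relative values, 0.371% of all probe sets passed an adjusted p of 0.05, and 0 of the 8 member probe sets did (adjusted p = 1.0 for each). That fit gave every probe set the same standard error, 0.288, so a member's own spread did not enter it. For Lat the SDs of the relative values were 0.0662 in wild type and 0.0971 in the hypomorph. That fit therefore cannot decide if a member moved apart from the CD3 chains. A fit with the CD3 mean as a covariate was added after the values had been seen. There 3 of 8 passed an unadjusted limma p of 0.05, Cd28 (1437025_at, 0.26, interval 0.03 to 0.49), Icos (1421931_at, 0.36, interval 0.02 to 0.70) and Pdcd1 (0.45, interval 0.04 to 0.86), where 5.36% of all probe sets were higher at that threshold. Their unadjusted p-values were 0.0334, 0.0392 and 0.0371 from limma. The other probe sets of Cd28 (0.19, interval -0.05 to 0.42) and Icos (0.32, interval -0.01 to 0.64) did not pass. Unadjusted limma p-values of these were 0.1 and 0.0571. With adjustment over all probe sets 0 of 8 passed (limma adjusted p = 0.549 to 0.998), as did 0.0% of all probe sets.

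**Figure D4:**
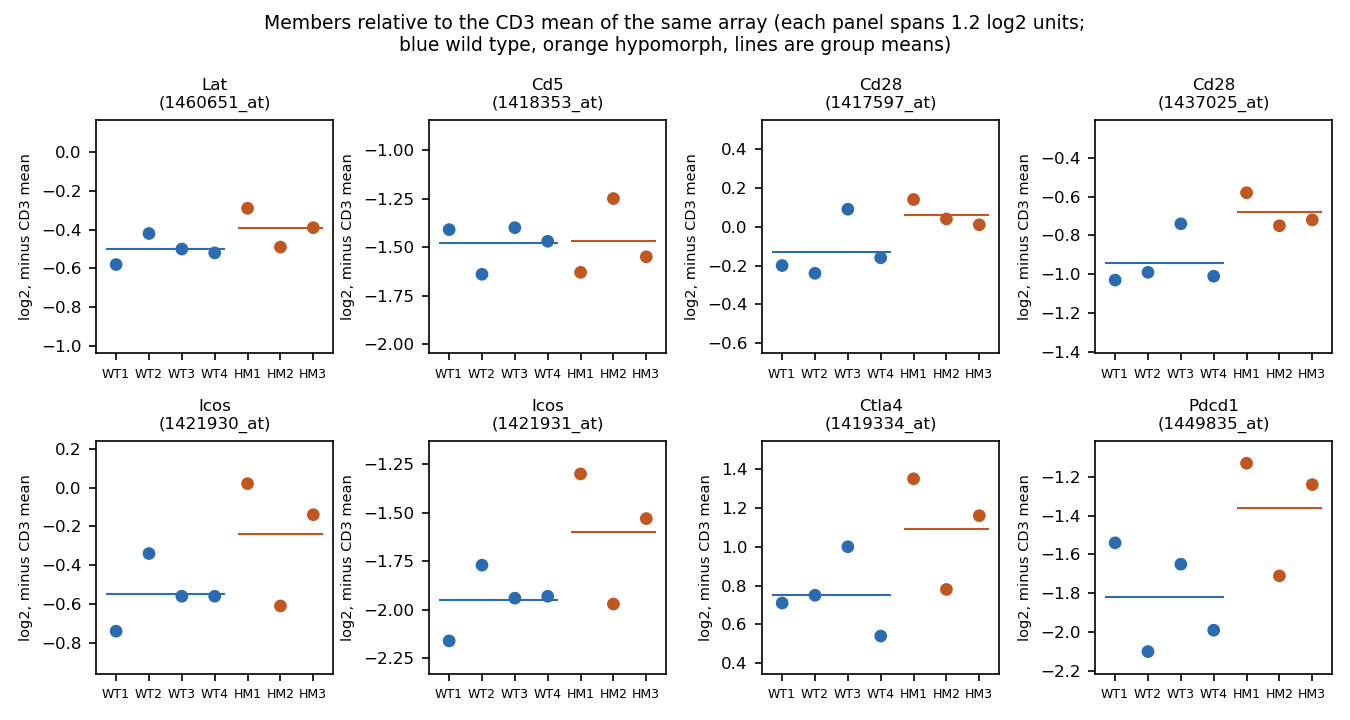
Each of the 8 probe sets outside the CD3 chains as its log2 value minus the mean of Cd3d, Cd3e and Cd3g on the same array, blue for wild type and orange for hypomorph, with lines at the group means. For Icos, Ctla4 and Pdcd1 the arrays HM1 and HM3 lie above all wild-type arrays and HM2 among them, and Cd5 has nearly equal means (difference 0.01).

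The 4 CD28 family genes are on chromosome 1, as is Atg16l1, while the other members are on chromosomes 4, 7, 9 and 19. In the RefSeq gene order Cd28, Ctla4 and Icos are neighbours with 190 to 192 protein-coding genes between them and Atg16l1, and Pdcd1 has 87 between. Over 1198 probe sets of single genes on chromosome 1 the median difference was 0.00, 51.3% were above 0, and 5.59% were higher at an unadjusted limma p of 0.05. The 281 other probe sets from Cd28 to Pdcd1, Atg16l1 among them, had a median of -0.01, with 46.6% above 0 and 4.27% higher. The part of the chromosome in the members' differences was not tested.

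The rest of the receptor could be followed only in part. Of 10 genes listed for receptor and zeta chains, only Cd247, which encodes the zeta chain, was measured. It read 8.57, 7.69, 7.94 and 7.80 in wild type, then 8.03, 8.27 and 7.76 in the hypomorph, a difference of 0.02 (-0.50 to 0.53, limma adjusted p = 0.989). WT1 was again the highest and WT2 the lowest of all arrays. Among 12 probe sets naming 6 variable segments of the receptor's chains, a list added after the data were seen, 4 were above the median probe set on every array, 3 of them named Trav9d-3 and 1 Trbv1. Trbv1 (1452205_x_at) read 10.82, 9.93, 10.51 and 10.05 and then 10.50, 10.43 and 10.26. These probe sets can respond to related segments. Of the 12, 8 had a difference above 0 and 4 below, with 0 higher and 2 lower at an unadjusted limma p of 0.05, where 3.34% of all probe sets were lower. Both name Trgv4, a gamma segment (differences of -0.90 and -0.65), and neither was above the median probe set on every array. The third Trgv4 probe set had a difference of 0.04.

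Of 35 signalling genes listed downstream of the receptor, 27 were measured, 16 with a difference above 0 and 11 below (median 0.02), with 1 higher and 0 lower at an unadjusted limma p of 0.05 and 0 at an adjusted one. That share is near the 4.35% of all probe sets that were higher. The 1 was Ptpn22, a phosphatase that dampens receptor signalling and that other leukocytes also express. It read 10.21, 9.91, 10.01 and 9.99 in wild type, then 10.80, 10.23 and 10.32 in the hypomorph, higher without overlap by 0.42 (0.08 to 0.75, limma adjusted p = 0.644). Fyb, an adaptor of adhesion signalling, had a difference of 0.17, the kinase Fyn 0.20 and the transcription factor Nfatc1 0.19, none of which passed. Zap70, with 0.10 (-0.38 to 0.58), showed the members' order in wild type: 7.85, 6.98, 7.35 and 7.15.

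The other T cell surface receptors had a median difference near 0. Of 23 listed 19 were measured, 13 above 0 and 6 below at a median of 0.04, and 0 passed an unadjusted limma p of 0.05 in either direction. The named ones were Tnfrsf4 (OX40, a costimulatory receptor of the tumour necrosis factor receptor family, 0.25), Cd4 (the coreceptor of helper T cells, also on some dendritic cells, 0.22), Havcr2 (TIM-3, 0.28) and Cd6 (a relative of Cd5, 0.26). Naive and resting T cell genes had a median of 0.22 over 5 measured of 7, with 4 above 0 (Il7r 0.42, Lef1 0.43, S1pr1 0.22 and Klf2 0.10), 1 below (Ccr7, the lymph node homing receptor, -0.07) and 0 passing. That median was 0.05 without WT2 and 0.39 without WT1. Il7r, whose receptor keeps resting T cells alive, spread over 1.64 log2 units in wild type (9.79, 8.15, 9.50 and 8.39) and read 9.38, 9.48 and 9.28 in the hypomorph.

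Activated and effector T cell genes had 7 of 12 above 0 and a median of 0.06, with 0 passing (Gzmb 0.29, Eomes -0.33, Cxcr6 0.31, Il2ra 0.24). For regulatory T cells, which carry much CTLA-4 and ICOS, 5 of 6 genes were measured, at a median of -0.01 with 0 passing. All but Nrp1 read below the median probe set, and Nrp1 alone had a difference of -0.27. Foxp3, the factor that defines them, read 3.01, 2.67, 2.67 and 2.54 in wild type, then 2.70, 2.70 and 2.74 in the hypomorph. It and Ikzf2 were below the lower quartile of probe sets on every array, so the change of these transcripts could not be followed. The 4 precursor genes (Rag1, Rag2, Dntt and Ptcra) were below it on every array too.

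The ligands of these receptors, on antigen-presenting cells, were all 5 measured and all 5 above 0, with a median of 0.37 and 0 at an unadjusted limma p of 0.05. Cd274 (PD-L1, a ligand of PD-1) had a difference of 0.69 (-0.03 to 1.41), Cd80 0.39 and Cd86 0.37 (both ligands of CD28 and CTLA-4), Pdcd1lg2 0.09 and Icosl 0.03. Cd274 read 8.49, 8.54, 8.70 and 8.26 in wild type, then 9.98, 8.51 and 9.07 in the hypomorph. Its HM2 value thus lay inside the wild-type range. The median of the 5 ligands was 0.25 without HM1 and 0.23 without WT1. By array their median deviation from the wild-type mean was 0.57 on HM1, 0.01 on HM2 and 0.42 on HM3, and that of the CD28 family 0.61, 0.24 and 0.27.

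Markers of other cells were read beside the members, and their part in the members' values was not tested. Dendritic cell genes, the cells named by the labels, had 10 of 12 measured, with 0 below the lower quartile on every array, a median difference of 0.02 and a linear level, summed over the list, of 7290 to 8370 in wild type and 7330 to 10300 in the hypomorph. Such sums compare the groups within 1 list and not 1 list with another. NK cell genes had 8 of 10 measured, a median of 0.10 and sums of 6730 to 7840 and 7270 to 8420, which include Tyrobp, a gene of myeloid cells too. Ncr1, the receptor that defines NK cells, was below the lower quartile on every array, as were Klra7 and Klra8. Klrd1, Nkg7, Klrk1 and Cd244a were above the median probe set on every array, with differences of -0.09, -0.11, 0.17 and 0.50. Klrd1 read 10.82, 9.78, 10.56 and 10.09 in wild type, with WT1 and WT3 above WT2 and WT4 as for the members. Cd244a ran the other way (7.56, 8.45, 7.87 and 8.85).

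Plasma cell genes had differences above 0, as the CD28 family did: all 6 measured of 7 were above 0, at a median of 0.38. At an unadjusted limma p of 0.05, 3 were higher, Sdc1 (0.62), Prdm1 (0.42) and Irf4 (0.33), where 4.35% of all probe sets were. With adjustment 0 passed (limma adjusted p = 0.644 for each of these). Activated T cells also express Prdm1 and Irf4. The plasma cell genes had 0 below the lower quartile on every array. Their median deviation was 0.38, 0.25 and 0.39 on HM1 to HM3 and -0.04, -0.08, 0.15 and 0.04 on WT1 to WT4, and their sums were 2350 to 3300 in wild type and 3030 to 4060 in the hypomorph. Xbp1, with the highest values of the list, weighs most in these sums and had a difference of 0.11. Sdc1 was below the median probe set on every array, and its groups overlapped. It read 3.88, 4.06, 3.93 and 4.18 in wild type, then 4.92, 4.09 and 4.88 in the hypomorph. B cell genes had 2 of 8 measured above 0 and a median of -0.22, which was -0.08 without HM1. Of these, 2 were lower at an unadjusted limma p of 0.05 (Cd79a -0.52, Blk -0.27), where 3.34% of all probe sets were. Ms4a1 was lower without overlap (-1.09), with HM1 at 4.29 and HM2 and HM3 at 6.56 and 6.46. Neutrophil genes had 0 of 7 above 0 and a median of -0.53, which was -0.24 without HM1. There too 2 were lower at that threshold (Camp -0.69, Elane -0.63). With adjustment 0 passed in either list.

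Red pulp macrophage and monocyte genes, 9 measured of 10, ran against the members within wild type in their median. Their median deviation was -0.41, 0.19, -0.21 and 0.44 on WT1 to WT4, where that of all member genes was 0.46, -0.38, 0.13 and -0.25. In the hypomorph it was 0.41, 0.15 and 0.30, and their sums were 21300 to 35000 in wild type and 30500 to 35500 in the hypomorph. Ccr2 did not run against the members, at 8.93, 8.42, 8.85 and 8.98 on WT1 to WT4, and had a difference of -0.16. The lists with the largest median differences were mast cell and basophil genes at -0.82 and erythroid genes at -0.78, the latter 0.03 without HM3. Of the mast cell and basophil genes 0 of 7 were above 0, and 6 were lower at an unadjusted limma p of 0.05, where 3.34% of all probe sets were. With adjustment 0 of them passed (smallest limma adjusted p = 0.445). Within the 4 wild-type arrays the mast cell and basophil list read -0.09, -0.01, -0.43 and 0.43, an order unlike that of the members.

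**Figure D5:**
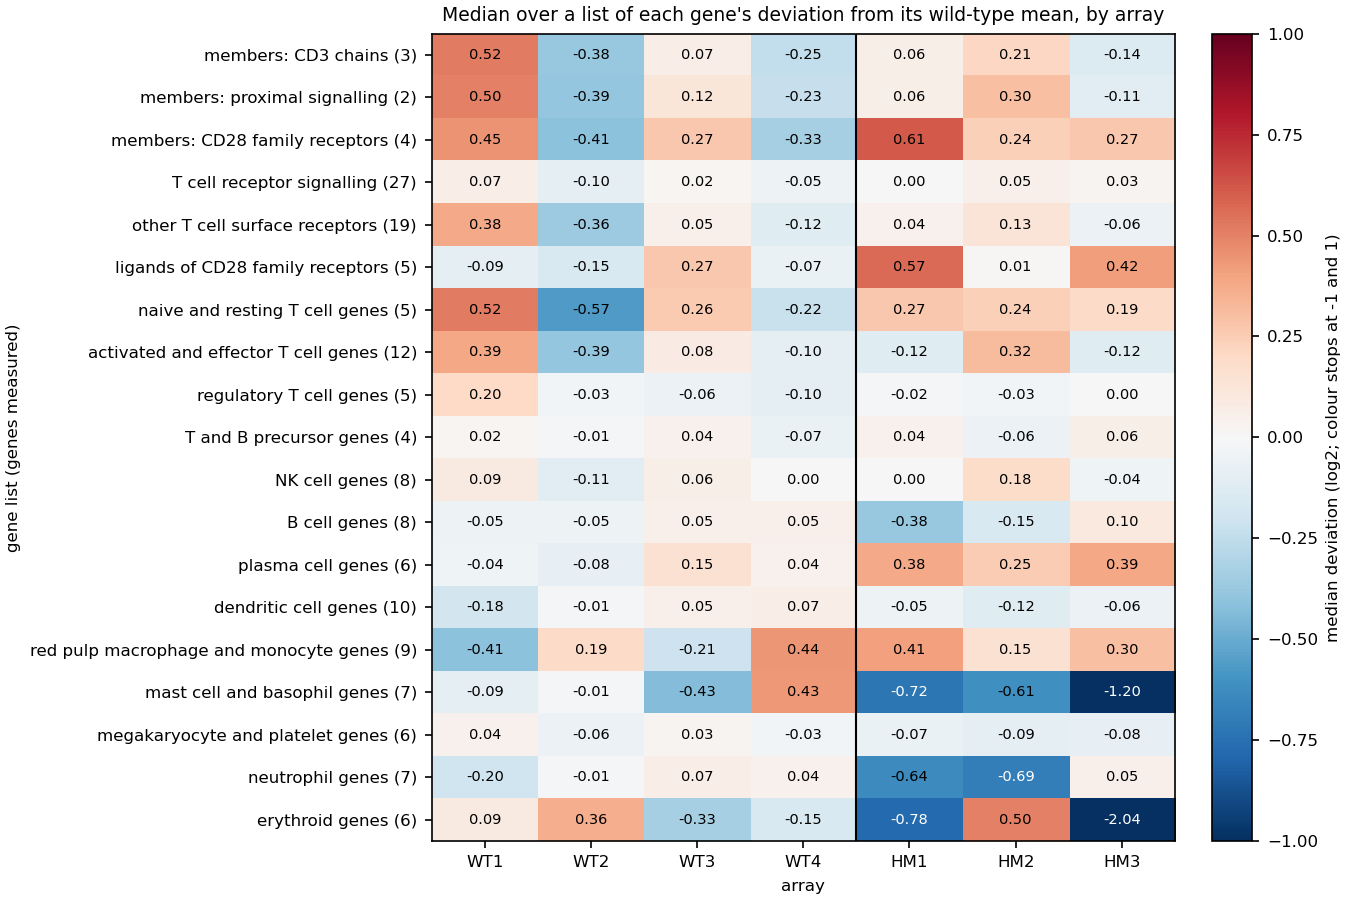
Median over each gene list of the deviation of each gene from its wild-type mean (log2), by array, with the number of genes measured in brackets and colour that stops at -1 and 1. WT1 is high (0.45 to 0.52) and WT2 low (-0.41 to -0.38) in the 3 groups of members, and the macrophage and monocyte list has the opposite signs (-0.41 and 0.19).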

How the data were processed

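Per the labels' protocols, 100 ng of total RNA, extracted with Trizol, was hybridized to an Affymetrix Mouse430A array per sample. The deposited values are log2 levels of probe sets, and the submitters' processing notes name Affymetrix Power Tools. How they were summarised, background-corrected and normalized was not given in the sources used here. No value was changed. Of 22690 probe sets, 64 controls and 1 without values were left out. Names came from the array's annotation, updated through RefSeq genes of GRCm38.p6 (20350 of 20379 single-gene probe sets matched). 691 probe sets named several genes and 1555 none.

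Group means were fitted by limma (version 3.58.1, R 4.3.3) with eBayes, no trend and no block, and single probe sets also with exact permutation tests. Lists used the probe set with the highest mean of each gene, and at most 4 genes per list were named by smallest unadjusted p. Some other genes were named for their level or pattern, or to complete a list. Members and lists were chosen with earlier results of these data known. Alternatives covered the normalization, variance model, array weights, replicate block, an offset, dim probe sets and each array left out. On simulated data (10 runs, 200 of 22625 probe sets changed), limma recovered 39.9% of changes of 0.5, 80.4% of 1 and 97.4% of 2 on the log2 scale, with 5.53% of calls false. The changed probe sets were drawn from all probe sets, each with its own SD. The members had larger wild-type SDs (0.233 to 0.643, against a median of 0.12), so these rates overstate what could be recovered for them.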

Additional observations from a re-analysis of the deposited data

Results flagged for a closer look

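In 1 of 43 measures examined within wild type, 1 array stood apart from the other 3 by more than the 95% critical value of Dixon's ratio for 4 samples. Chance gives about 5% of such measures. The measure was the level of Cd28 (1437025_at) relative to the CD3 mean, where WT3 stood at -0.74 and the others at -1.03, -0.99 and -1.01, a ratio of 0.853. The hypomorph arrays stood at -0.58, -0.75 and -0.72.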

How the results depend on the processing

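No member probe set passed an adjusted limma p of 0.05 in any setting run. Over all probe sets the count of 0 became 5 with each array centred on its median, 5 with trend and robust settings, 3 with array weights, 5 with only the probe sets at or above the median probe set, and 0 to 2 when single arrays were left out. Member probe sets under an unadjusted limma p of 0.05 numbered 2 with array weights, 2 with the replicate block and 0 to 3 when single arrays were left out. In each setting with any, both Icos probe sets were among them. Unadjusted calls over all probe sets, 984 higher and 755 lower, were 598 and 497 without HM1, 431 lower without WT2, and 1411 higher and 1578 lower without HM2. With array weights they were 1018 and 893, and with the replicate block 945 and 917. With only the brighter probe sets they were 559 and 498, out of a smaller number of probe sets tested, so these counts cannot be set against the others. Signs that turned were those of differences near 0. With the replicate block Cd3d was -0.02, Cd3g -0.03 and Cd5 -0.05. With array weights Cd3e was 0.03. Leaving out single arrays gave -0.06 to 0.25 for Cd3d, -0.12 to 0.12 for Cd3e, -0.11 to 0.19 for Cd3g and -0.16 to 0.22 for Cd5. Cd5 relative to the CD3 mean was 0.0 with 32 added to the linear value, -0.04 against Cd3d alone, 0.0 with the CD3 mean as a covariate and -0.11 to 0.08 when single arrays were left out. The cause was not tested. The replicate block rests on shared numbers only: deviations of same-numbered arrays correlated at 0.102, 0.098 and 0.339, and 2 of 6 arrays were closest to their own number. Array weights could not be fitted to the relative values, as the estimate stopped before convergence. The alternatives for the relative values, the covariate and the single CD3 references were chosen after seeing the data.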
